A study of Caenorhabditis elegans with 6 samples.

Results

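Heat shock protein, J-domain protein and chaperonin genes were followed in whole adult Caenorhabditis elegans that had or had not received the methylxanthine caffeine. The set holds every gene whose WormBase symbol starts with hsp-, dnj- or cct-, which gave 59 of the 46904 gene IDs in the files: 22 hsp, 29 dnj and 8 cct genes. The hsp genes were divided into 13 small heat shock proteins, 4 large cytosolic ones (hsp-1, hsp-70, hsp-90, hsp-110), 3 of the mitochondrion (hsp-6, hsp-60, hsp-75) and 2 of the endoplasmic reticulum, or ER (hsp-3, hsp-4). Membership followed from the gene names alone, but the genes and lists were chosen with earlier results of these data known. In the table of gene names, 2 IDs shared the symbol hsp-16.1 and 2 shared hsp-16.48, and they were told apart as hsp-16.1, hsp-16.11, hsp-16.48 and hsp-16.49 by their RefSeq coordinates.

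All 6 samples were hermaphrodites of strain N2, the wild-type laboratory strain, on day 3 of adulthood, with no mutation or transgene. They had stayed on NGM agar with OP50 bacteria at 25 °C for 72 h from the L4 stage, in 3 samples with 10 mM caffeine in the agar and in 3 without (control, 0 mM). About 300 worms were pooled for each sample, which the labels call a biological replicate, and polyadenylated RNA was sequenced from both ends. A temperature of 25 °C is at the warm end of the range used to grow this species, and both groups shared it.

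Molecular chaperones help other proteins to fold or keep them from clumping. Small heat shock proteins hold unfolded proteins, HSP70 and HSP90 machines refold them with ATP, J-domain proteins deliver clients to HSP70 and stimulate its ATPase, and the CCT chaperonin folds actin and tubulin inside a double ring. In C. elegans the heat shock factor HSF-1 drives the hsp-16 genes and the heat-inducible HSP70 genes, hsp-6 and hsp-60 serve as reporters of mitochondrial stress, and hsp-4, which encodes an ER HSP70 (BiP), serves as a reporter of ER stress.

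Libraries held between 40417780 and 40746556 counts, and the set took between 1.54% and 1.66% of them. Of the 59 genes, 58 passed the filter on low counts, and hsp-16.1 did not. Markers of all 7 tissues listed were detected in these whole-body samples. The summed level of the 3 muscle markers ran from 256 to 286 CPM (counts scaled to a common library total) in control and from 347 to 479 with caffeine. The 5 germ line markers summed to between 5424 and 5494 CPM in control and to between 4212 and 5166 with caffeine, and the 4 intestinal markers, nearly all of it vit-6, to between 17537 and 19258 and to between 8693 and 15106. The 42 sperm markers, 3 of them at 0 in all libraries, ran from 41.2 to 135.4 CPM in control, highest in library 2, and from 26.3 to 63.0 with caffeine, highest in library 1. The part of these shifts in the results below was not tested, and in whole animals fewer cells of a type and less RNA per cell cannot be told apart.

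Of the 58 tested genes, 14 were called changed, 4 higher and 10 lower with caffeine. Calls are at an adjusted p under 0.05 by edgeR's quasi-likelihood test with Benjamini-Hochberg adjustment over all 14200 tested genes, and all adjusted p-values below come from it. The share called was 24.1%, beside 24.3% of all tested genes. Higher calls made up 6.90% of the set against 13.8% of all genes, and lower calls 17.2% against 10.5%. The median log2 fold change was -0.06 for the set and -0.00068 for all tested genes. The groups did not overlap in 27 of the 58 genes (46.6%, beside 44.2% of all genes), with caffeine above in 8 and below in 19, which for all genes held in 23.3% and 20.9%. Calls of at least 2-fold were made for hsp-16.2, hsp-16.41 and hsp-12.3 (5.17%, against 8.15% of all genes). The classes differed in their counts: 7 of 12 small heat shock protein genes, both ER genes and 5 of 29 dnj genes were called, and no large cytosolic, mitochondrial or cct gene was.

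**Figure D1:**
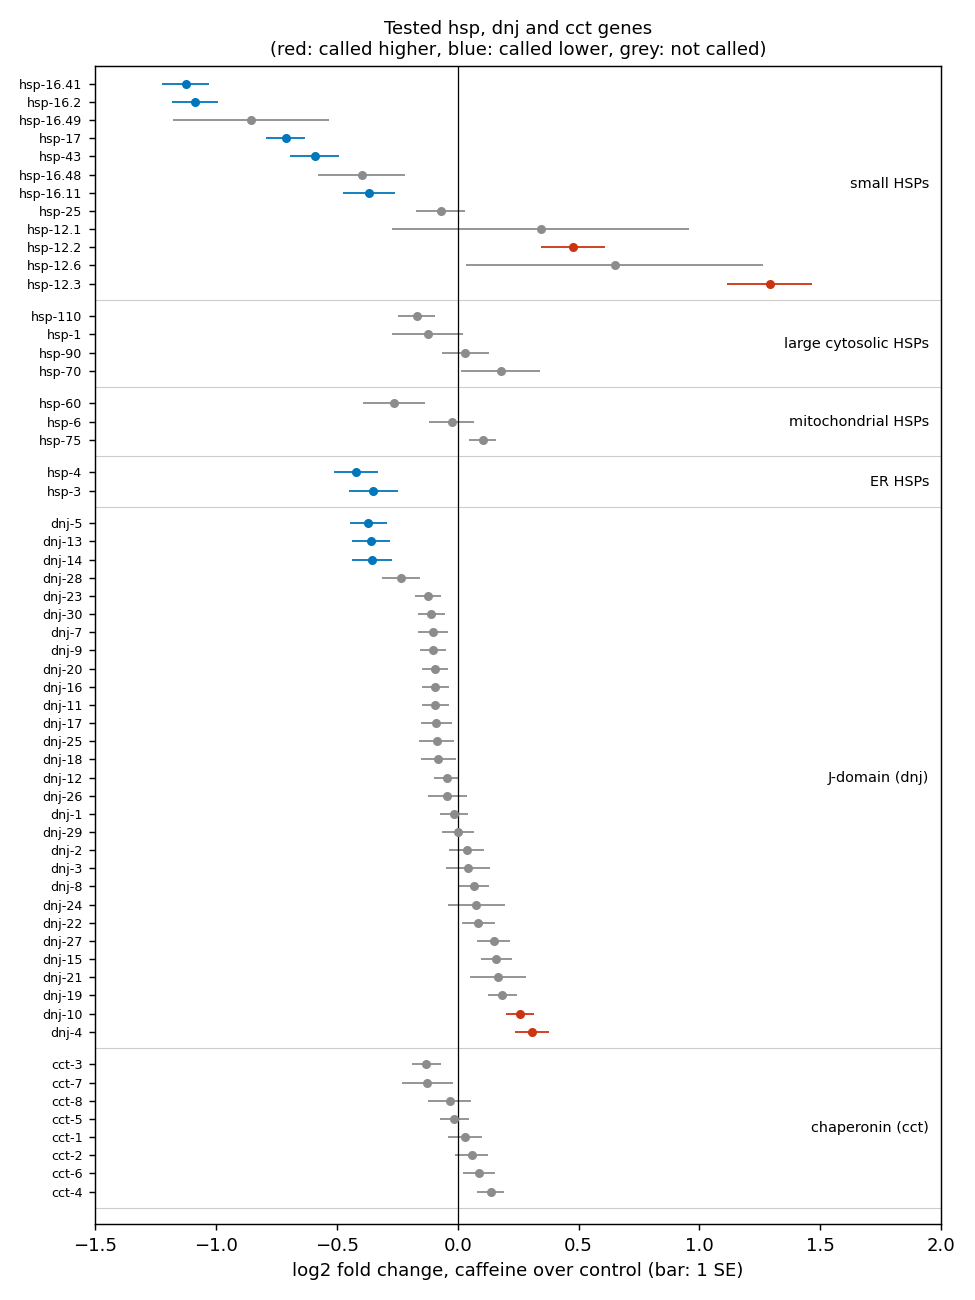
Log2 fold change (caffeine over control, horizontal axis) of the 58 tested genes by class, with bars of 1 SE from edgeR's fit to 3 control and 3 caffeine libraries. The small heat shock protein genes spread from -1.13 for hsp-16.41 to 1.29 for hsp-12.3, while the cct genes lie between -0.13 and 0.14.

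The hsp-16 genes encode small heat shock proteins of the cytosol that are known for strong induction by heat. Of them, hsp-16.2 and hsp-16.41 fell the furthest, to 0.471 and 0.458 of their mean control levels. They stand head to head on chromosome V (hsp-16.2 at 1804334 to 1804957, minus strand, and hsp-16.41 at 1805178 to 1805875, plus strand, WBcel235), with 220 bp between their starts. hsp-16.2 had 803, 770 and 821 counts without caffeine and 381, 431 and 345 with it. Its level fell from 19.9 ± 0.563 to 9.38 ± 0.873 CPM (± SD, n = 3 each; log2 fold change -1.09, SE 0.10, adjusted p = 0.000183, edgeR). hsp-16.41 had 882, 811 and 847 counts against 420, 395 and 376. Its log2 fold change was -1.13 (SE 0.10, adjusted p = 0.00017, edgeR). For both genes the groups lay far apart and the 3 libraries of a group close together. Both were called under all 13 alternative settings.

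The other four hsp-16 genes form a second cluster on chromosome V, between 9087293 and 9090604, made of 2 head-to-head pairs: hsp-16.1 with hsp-16.48, 348 bp apart, and hsp-16.49 with hsp-16.11, 310 bp apart. hsp-16.1 and hsp-16.11 are near-identical copies, as are hsp-16.48 and hsp-16.49, and all 4 had values that were not whole in 4 or 5 libraries, which shows that reads had been divided among genes. hsp-16.1 was listed at 0, 0 and 5.26 counts in control and at 5.44, 15.52 and 11.16 with caffeine, while hsp-16.11 held 2167.00, 2043.00 and 2151.74 against 1531.56, 2089.48 and 1459.84. hsp-16.11 was called lower at -0.37 on the log2 scale (SE 0.11, adjusted p = 0.0382, edgeR). For hsp-16.49 the split of reads varied widely, with 1140.30, 636.92 and 844.57 counts without caffeine and 275.67, 784.00 and 447.50 with it. Neither hsp-16.49 (log2 fold change -0.85, SE 0.32, adjusted p = 0.0880, edgeR) nor hsp-16.48 (-0.40, SE 0.18, adjusted p = 0.138, edgeR) was called.

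Because the division between copies is uncertain, the copies were also summed, a choice made after seeing the data. hsp-16.48 with hsp-16.49 had 1629, 1380 and 1478 counts without caffeine and 827, 1232 and 895 with it. Their sum fell from 37.3 ± 2.82 to 23.8 ± 3.99 CPM (± SD, n = 3 each; log2 fold change -0.65, SE 0.12, adjusted p = 0.00675, edgeR). hsp-16.1 with hsp-16.11 had 2167, 2043 and 2157 counts against 1537, 2105 and 1471. This sum went from 53.0 ± 1.35 to 41.3 ± 6.59 CPM (log2 fold change -0.36, SE 0.11, adjusted p = 0.0415, edgeR). Caffeine library 2 was the highest of its group for both sums, and in CPM neither sum overlapped between the groups. The call of hsp-16.11 alone was lost under 7 of 13 settings, among them the fits without 1 library other than caffeine library 2, where its adjusted p ran up to 0.101 (edgeR).

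Ratios between hsp-16 genes within a library were compared between the groups, which like the sums was not planned beforehand. The test cannot pass 0.05 with 3 against 3 libraries. Within a library, the ratio of hsp-16.41 to hsp-16.2 counts was 1.10, 1.05 and 1.03 in control and 1.10, 0.916 and 1.09 with caffeine, so the head-to-head pair kept nearly 1 ratio. The ratio of hsp-16.1 with hsp-16.11 to hsp-16.2 was 2.699, 2.65 and 2.63 in control and 4.03, 4.88 and 4.26 with caffeine. The ratio of hsp-16.48 with hsp-16.49 to hsp-16.41 was 1.85, 1.70 and 1.74 against 1.97, 3.12 and 2.38. Between the 2 kinds of copies in the larger cluster (hsp-16.48 with hsp-16.49 over hsp-16.1 with hsp-16.11) it was 0.752, 0.675 and 0.685 against 0.538, 0.585 and 0.608. In these last 3 ratios the groups did not overlap, and an exact two-sided permutation test over the libraries (n = 3 per group) gave p = 0.1, the smallest it can give, or 0.133 adjusted over the 4 ratios. For the first ratio the exact permutation p was 0.9. The ratios restate the unequal falls given above and are not independent of them.

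**Figure D2:**
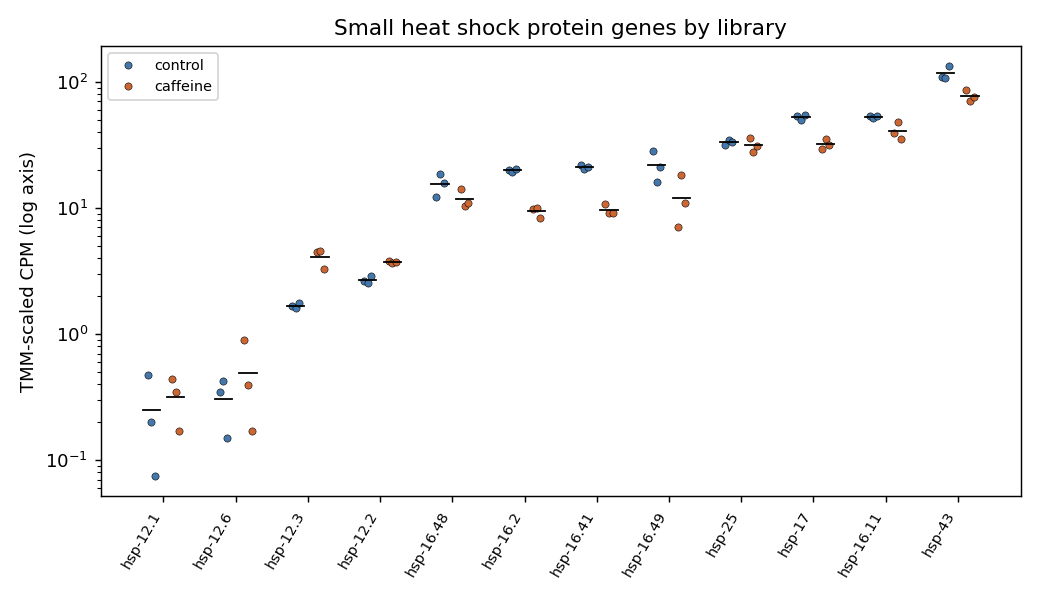
TMM-scaled CPM (log axis) of the 12 tested small heat shock protein genes in each library, with 3 points per group and a line at the group mean. hsp-16.2 and hsp-16.41 sit near 20 CPM in control and near 10 with caffeine, and hsp-12.3 goes the other way, from 1.68 to 4.12.

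Among the remaining small heat shock protein genes, 2 fell, 2 rose and 3 were not called. hsp-17 (chromosome V, 8384799 to 8385929, minus strand) had 2169, 1992 and 2165 counts without caffeine and 1137, 1540 and 1301 with it. It fell from 52.7 ± 2.17 to 32.1 ± 3.15 CPM (± SD, n = 3 each; log2 fold change -0.71, SE 0.08, adjusted p = 0.000721, edgeR). Its exons share 73 bp with F52E1.14 on the other strand, and whether strand was used in counting is not stated. hsp-43 (chromosome X, 6233151 to 6235543, minus strand), the most abundant gene of the class in CPM, had 4443, 4281 and 5303 counts against 3339, 3044 and 3134 (log2 fold change -0.59, SE 0.10, adjusted p = 0.0045, edgeR). Every caffeine library of hsp-17 and hsp-43 lay below every control library, and both were called in all 13 alternatives. hsp-25 had 1274, 1373 and 1323 counts against 1400, 1199 and 1266, with overlapping groups and a log2 fold change of -0.07 (SE 0.10).

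The hsp-12 genes encode the shortest small heat shock proteins of the worm, and they were rare in these libraries. hsp-12.3 (chromosome IV, 9444791 to 9445507, minus strand) had 68, 64 and 70 counts without caffeine and 173, 199 and 136 with it, a 2.45-fold higher mean level. Its log2 fold change of 1.29 (SE 0.18, adjusted p = 0.0016, edgeR) was called in all 13 alternatives. hsp-12.2 (chromosome III) had 106, 100 and 116 counts against 147, 160 and 153. It was called higher at 0.48 (SE 0.13, adjusted p = 0.0334, edgeR), but each fit without 1 library lost the call, as did DESeq2 (adjusted p = 0.0539). hsp-12.6, known as a target of the insulin pathway factor DAF-16, lies 721 bp from hsp-12.3 on the same strand and had 14, 17 and 6 counts against 35, 17 and 7. hsp-12.1 had 19, 8 and 3 counts against 17, 15 and 7. At this depth no difference was detectable for these last 2, for which the fit gave 0.65 (SE 0.62) and 0.34 (SE 0.61) on the log2 scale.

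No large cytosolic heat shock protein gene was called: 0 of 4 by edgeR, 0 at an unadjusted p under 0.05 and 0 by DESeq2. Over all 14200 tested genes these counts were 3450 (24.3%), 5535 and 3799, so a count over 4 genes says little about the class. Per kilobase of exon, hsp-90 ranked 35 and hsp-1 ranked 51 among the 14200 tested genes in control, at 1562 and 1338 CPM per kb. hsp-90, the only cytosolic HSP90 of the worm, had 142868, 152414 and 147283 counts without caffeine and 161309, 150883 and 150836 with it (log2 fold change 0.03, SE 0.10). hsp-1, the constitutive HSP70, had 104879, 116623 and 111459 counts against 121158, 88933 and 101326 (log2 fold change -0.12, SE 0.15). The caffeine libraries of hsp-1 lay on both sides of the controls, with library 1 the highest of all and library 2 the lowest. hsp-110, a nucleotide exchange factor of HSP70, had 18717, 19071 and 18582 counts against 17746, 16468 and 17064. Its CPM did not overlap between groups, and its log2 fold change of -0.17 (SE 0.08, adjusted p = 0.135, edgeR) was called lower without caffeine library 1 only (-0.24, adjusted p = 0.0151, edgeR).

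hsp-70, a heat-inducible HSP70 gene, was 249-fold below hsp-90 per kilobase in control. It had 582, 544 and 423 counts against 634, 684 and 479, with overlapping groups and a log2 fold change of 0.18 (SE 0.16). F44E5.4 and F44E5.5, a further head-to-head pair of HSP70 genes induced by heat, carry no hsp symbol and were added after their values were seen. They lie 350 bp apart on chromosome II, and reads were divided between them in each of the 6 libraries. Their sum was 1827, 1572 and 1517 counts without caffeine and 5468, 7828 and 3225 with it, 3.26-fold higher in mean CPM. F44E5.5 was called higher at 1.67 on the log2 scale (SE 0.24, adjusted p = 0.00196, edgeR) in all 13 alternatives, and F44E5.4 at 1.76 (SE 0.42, adjusted p = 0.0192, edgeR) in 10 of 13. All caffeine libraries lay above all controls, and caffeine library 3 was the lowest of its group.

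**Figure D3:**
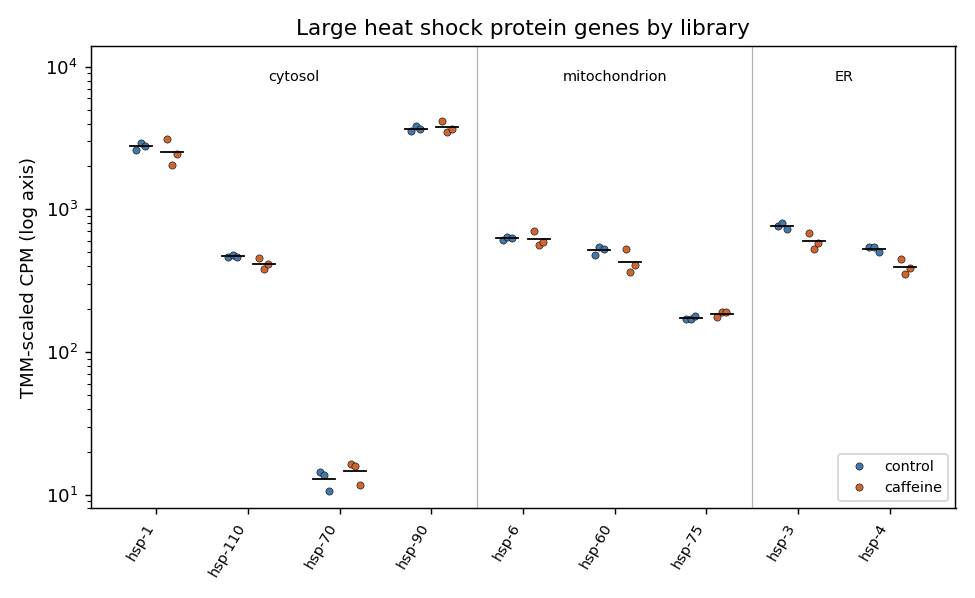
TMM-scaled CPM (log axis) of the 9 large heat shock protein genes of cytosol, mitochondrion and ER in each library, with 3 points per group and a line at the group mean. The groups separate for hsp-3, hsp-4 and hsp-110, and in the others they overlap.

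No mitochondrial heat shock protein gene was called: 0 of 3 by edgeR, 0 at an unadjusted p under 0.05 and 0 by DESeq2. Beside the 24.3% of all tested genes that edgeR called, a count over 3 genes says little about the class. hsp-6, the mitochondrial HSP70, had 24729, 25503 and 25403 counts without caffeine and 27516, 24270 and 24180 with it (log2 fold change -0.03, SE 0.09). hsp-75, of the TRAP1 kind of mitochondrial HSP90, had 6867, 6718 and 7187 counts against 6824, 8222 and 7892 (log2 fold change 0.10, SE 0.06). hsp-60, the mitochondrial chaperonin, had 19385, 21639 and 21044 counts against 20317, 15647 and 16753. In CPM, caffeine library 1 lay among the controls at 524 and libraries 2 and 3 lay below them at 361 and 407. Its log2 fold change of -0.26 (SE 0.13, adjusted p = 0.165, edgeR) became -0.43 without caffeine library 1, with an adjusted p of 0.00605 (edgeR), so 1 library decided whether hsp-60 was called.

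Of 14 tested genes listed for mitochondrial protein quality control, 2 were higher and 3 lower (35.7%, beside 24.3% of all tested genes), with a median log2 fold change of 0.01. dve-1, a transcription factor of the mitochondrial unfolded protein response, fell from 14.1 ± 0.984 to 9.86 ± 0.335 CPM (± SD, n = 3 each; log2 fold change -0.51, adjusted p = 0.00571, edgeR). lin-65, a chromatin factor of that response, fell at -0.43. atfs-1, its main transcription factor, was called lower at -0.24 (SE 0.07, adjusted p = 0.0340, edgeR), a call that was lost under 6 of 13 settings. Higher were gpd-2 at 0.52, which encodes a glycolytic enzyme, and timm-23 at 0.28, which encodes a channel for protein import and was called under 8 of 13 settings.

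Both ER heat shock protein genes were lower with caffeine. hsp-4 (chromosome II, 7350112 to 7352645, minus strand) had 22093, 21505 and 19986 counts without caffeine and 17286, 15336 and 15950 with it. Its level went from 529 ± 26.1 to 396 ± 46.4 CPM (± SD, n = 3 each; log2 fold change -0.42, SE 0.09, adjusted p = 0.0128, edgeR). hsp-3 (chromosome X, 6089028 to 6092124, minus strand), the second BiP gene, had 30954, 31689 and 29112 counts against 26709, 22934 and 23977 (log2 fold change -0.35, SE 0.10, adjusted p = 0.0375, edgeR). For both, every caffeine library lay below every control library, with library 1 the nearest. hsp-4 lost its call without control library 2 (adjusted p = 0.0502) and without caffeine library 3 (0.0515). hsp-3 lost it in 5 of the 6 fits without 1 library, all but the one without caffeine library 1, at up to 0.120. Within the caffeine group hsp-3 and hsp-4 together ran from library 1 over 3 to 2. The summed germ line, intestinal, hypodermal and oocyte or embryo markers had the same order of libraries. They stood at 0.853, 0.654, 0.921 and 0.907 of their control means. The summed muscle, neuronal and sperm markers had other orders. The summed CPM of all tested genes also ran from library 1 over 3 to 2, which only mirrors the TMM factors. The part of these sums in the result was not tested.

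The listed ER folding and unfolded protein response genes were called in 6 of 23 tested cases (26.1%, beside 24.3% of all tested genes), 2 higher and 4 lower, with a median log2 fold change of -0.07. ckb-2, a choline kinase gene known to respond to ER stress, fell from 19.2 ± 0.997 to 12.8 ± 0.170 CPM (± SD, n = 3 each; log2 fold change -0.59, adjusted p = 0.0016, edgeR). pdi-6, a protein disulfide isomerase, fell at -0.42, the ER kinase pek-1 at -0.23 and the secreted ER protein manf-1 at -0.23. atf-4, the transcription factor that acts below stress kinases such as PEK-1, rose from 24.7 ± 2.81 to 38.5 ± 1.90 CPM (± SD, n = 3 each; log2 fold change 0.64, adjusted p = 0.00233, edgeR). cnx-1, the ER chaperone calnexin, was called higher at 0.19 on the log2 scale. The call of cnx-1 held under 5 of 13 settings, that of manf-1 under 8 and that of pek-1 under 10. xbp-1, which encodes the factor spliced by IRE-1, was not called (log2 fold change -0.21, SE 0.09, adjusted p = 0.123, edgeR), and without caffeine library 1 it was (-0.29, adjusted p = 0.0279, edgeR). abu-1 was not tested.

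All 29 dnj genes were tested. Of them, 2 were called higher and 3 lower (17.2%, beside 24.3% of all tested genes), none by 2-fold, and log2 fold changes ran from -0.37 to 0.31 with a median of -0.05. No overlap between groups was seen in 15 of them (51.7%, beside 44.2% of all tested genes), 5 with caffeine above and 10 below. dnj-5 (chromosome II, 6853461 to 6858301, minus strand), the most abundant in CPM, had 25941, 24771 and 24970 counts without caffeine and 20324, 19035 and 20575 with it. Its level fell from 630.0 ± 10.8 to 487 ± 43.6 CPM (± SD, n = 3 each; log2 fold change -0.37, SE 0.08, adjusted p = 0.0108, edgeR), called in all 13 alternatives.

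dnj-13 encodes a cytosolic partner of HSP-1, of the DNAJB kind. It had 8935, 8057 and 8203 counts against 7073, 6540 and 6484 (log2 fold change -0.36, SE 0.08, adjusted p = 0.0139, edgeR). dnj-14, the worm cysteine string protein of synaptic vesicles, had 1306, 1357 and 1217 counts against 1027, 1006 and 1076 (log2 fold change -0.35, SE 0.08, adjusted p = 0.0165, edgeR). Of the 4 neuronal markers, 3 had a log2 fold change above 0 and 1 below, with a median of 0.52. Called were snt-1 and ric-4, both higher, and unc-64, lower, while rab-3 was not called. For dnj-13 and dnj-14 each caffeine library lay below each control library. The call of dnj-13 was lost without control library 1 and without caffeine library 3, and that of dnj-14 without control library 1 and without control library 2, with adjusted p up to 0.0549 and 0.0726 (edgeR). The exons of dnj-14 share 72 bp with dhhc-10 and those of dnj-5 36 bp with C04A2.15, in both cases on the other strand.

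dnj-10 and dnj-4 were higher. dnj-10, the mitochondrial partner of HSP-6 (chromosome III, 8631165 to 8633565, plus strand), had 3584, 3241 and 3227 counts against 3807, 4260 and 4265. It rose from 83.7 ± 4.44 to 99.98 ± 3.07 CPM (± SD, n = 3 each; log2 fold change 0.26, SE 0.06, adjusted p = 0.0152, edgeR). dnj-4 had 1201, 1113 and 1215 counts against 1341, 1571 and 1575 (log2 fold change 0.31, SE 0.07, adjusted p = 0.0159, edgeR). The call of dnj-10 was lost without control library 2 or 3 or caffeine library 3, and that of dnj-4 without control library 1 or 2 or caffeine library 3, up to adjusted p of 0.0698 and 0.0755 (edgeR).

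The other dnj genes with known places did not pass the test. In the ER, dnj-7 (the co-chaperone P58IPK), dnj-20 and dnj-27 had log2 fold changes of -0.10, -0.09 and 0.15, and dnj-29 of 0.00. dnj-21, of the import motor of mitochondria, was at 0.17 on 397 to 551 counts per library. Among the cytosolic partners of HSP70, dnj-12, whose reads were partly shared with other genes in each library, was at -0.05 and dnj-19 at 0.18 (SE 0.06, adjusted p = 0.0564, edgeR). dnj-19 had 15040, 14699 and 13630 counts without caffeine and 16317, 17333 and 16918 with it, without overlap, and was called higher under 3 settings. dnj-28 was at -0.24 (adjusted p = 0.0603, edgeR) and was called lower under 2. Per kilobase the dnj genes spanned 51.0-fold in control, from 4.61 CPM per kb for dnj-24 to 234.9 for dnj-19.

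There are 8 cct genes, 1 for each subunit of the CCT ring. None was called by edgeR or by DESeq2, and 1 (cct-4) had an unadjusted p under 0.05. Over all 14200 tested genes these counts were 3450 (24.3%), 3799 and 5535. Log2 fold changes lay between -0.13 for cct-3 and 0.14 for cct-4 (SE 0.05, adjusted p = 0.102, edgeR), 4 above and 4 below 0. cct-4 had 13194, 13192 and 13207 counts without caffeine and 14549, 15731 and 14356 with it. It was called higher when library totals alone set the scale (0.18, adjusted p = 0.0442, edgeR). cct-5, the most abundant, had 20473, 20546 and 19920 counts against 20410, 21273 and 20185 (log2 fold change -0.01, SE 0.06). cct-7 had 10803, 11743 and 10962 counts against 11659, 9690 and 10011, and in CPM caffeine library 1 lay above the controls and libraries 2 and 3 below them. It was called lower without caffeine library 1 (-0.26, adjusted p = 0.0185, edgeR). Per kilobase, levels in control lay within 2.21-fold of each other, from 119 CPM per kb for cct-8 to 263 for cct-5.

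The heat shock factor gene hsf-1 was slightly lower, at 177 ± 5.81 CPM in control and 156 ± 6.25 with caffeine (mean ± SD, n = 3 per group). Its log2 fold change of -0.18 (SE 0.05, adjusted p = 0.0438, edgeR) was past the threshold under 5 of 13 settings. hsb-1, ddl-1 and ddl-2, which encode proteins that bind and restrain HSF-1, were not called, at -0.01, -0.22 and -0.29. Of 19 tested cochaperone genes, 2 were higher and 0 lower by edgeR (10.53%, beside 24.3% of all tested genes), with a median log2 fold change of -0.01. 7 of the 19 had an unadjusted p under 0.05, and DESeq2 called 5. Over all 14200 tested genes these counts were 5535 and 3799, a similar share in both cases. ahsa-1, the activator of the HSP90 ATPase, rose from 221 ± 1.305 to 274 ± 16.15 CPM (± SD, n = 3 each; log2 fold change 0.31, SE 0.06, adjusted p = 0.0071, edgeR). pfd-5, a subunit of prefoldin, which hands clients to CCT, was called higher at 0.21, under 4 of 13 settings.

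Summed by class, small heat shock protein genes held 338.8 ± 17.01 CPM in control and 234 ± 11.7 with caffeine (mean ± SD, n = 3 per group), or 0.690 of the control mean. ER genes held 1293 ± 59.1 and 995 ± 128 CPM, or 0.770 of the control mean. In these classes and in the dnj genes (3923 ± 65.6 and 3721 ± 85.5 CPM) the groups did not overlap. For the dnj genes this rests on the TMM scaling: by library totals alone, caffeine libraries 2 and 3 lay above control libraries 2 and 3. The large cytosolic genes summed to 6941 ± 327 and 6743 ± 929 CPM, the mitochondrial ones to 1320 ± 50.04 and 1235 ± 155 and the cct genes to 2812 ± 34.7 and 2828 ± 199. In TMM-scaled CPM, caffeine library 1 was above all controls in these classes and caffeine library 2 below them. For the cct genes the place of caffeine library 2 rests on the scaling: by library totals alone, its sum lay above the controls. The summed CPM of all 14200 tested genes was 1041701 in caffeine library 1 and 937060 in caffeine library 2. In control it lay between 1004275 and 1022136. This order only mirrors the TMM factors, which were 0.960 and 1.067 in caffeine libraries 1 and 2 and 0.978 to 0.996 in control.

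**Figure D4:**
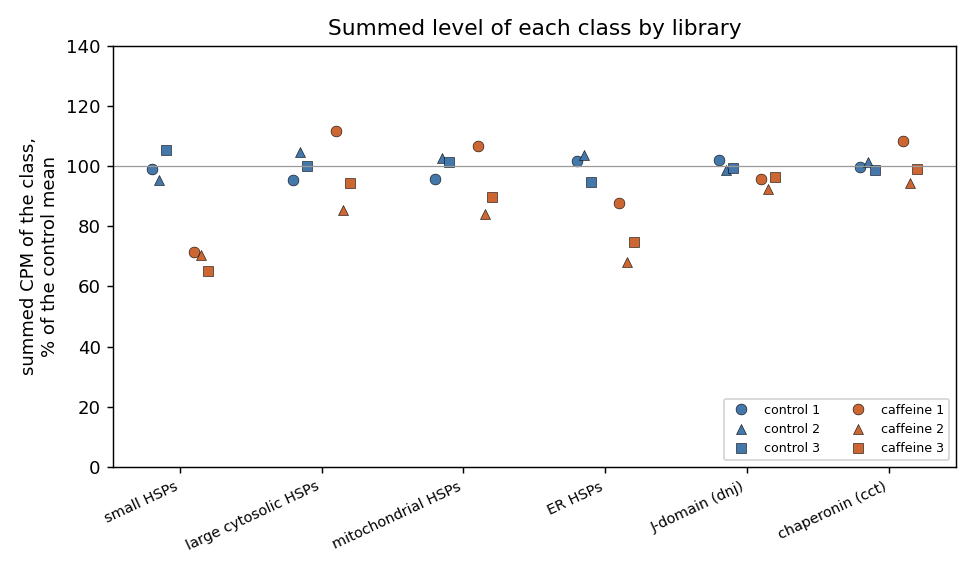
Summed CPM of all genes of a class in each library, in percent of the control mean (vertical axis), for the 6 classes, with a marker shape for each replicate number. Caffeine libraries of the small heat shock protein and ER classes lie below the controls, while caffeine library 1 lies above the controls in the large cytosolic, mitochondrial and cct classes.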

How the data were processed

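Per the file headers, the authors deposited 1 table per library with an expected count, an estimated number of reads, for each WormBase gene ID, not scaled by depth or length. STAR 2.7.0e, RSEM 1.3.1 and the builds WBcel235 and ce11 are named in the submitters' processing notes. The annotation release and the strand setting of the counting are not given in the sources used here. Names matched 44017 of 46904 IDs, and coordinates and exon lengths came from Ensembl release 115 (WBcel235). 7 of the 59 genes had a value that was not whole (tolerance 0.001).

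Expected counts were rounded, filtered with filterByExpr, scaled with TMM and tested with the quasi-likelihood test of edgeR 4.0.16 (R 4.3.3), caffeine against control, all 6 libraries, no covariate, Benjamini-Hochberg adjustment over 14200 genes, threshold 0.05. CPM used TMM-scaled totals. The script was tested on simulated data. It called 36 of 97 genes with a true absolute log2 fold change of 0.5 and 65 of 96 with 1. The simulation changed only a small share of the 14200 genes, drawn at any count level, whereas 24.3% were called in the data. The Benjamini-Hochberg adjustment was therefore stricter there, and these shares do not give the chance of a call for genes of the set. A gene that was not called may still differ. Named were all tested hsp genes, the called, most abundant and lowest-p dnj and cct genes, the other dnj genes of known place, and from other lists hsf-1, atfs-1, xbp-1 and the genes of lowest p and largest called change; other genes were added after their values were seen. The genes and lists were chosen with earlier results of these data known. Alternatives were DESeq2 1.42.0, 2 scalings, 2 filters, a replicate block, leaving out each library, and summed hsp-16 copies.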

Additional observations from a re-analysis of the deposited data

How the results depend on the processing

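All 14 called hsp, dnj and cct genes kept their direction under all 13 alternatives, and 6 kept their call in each: hsp-12.3, hsp-16.2, hsp-16.41, hsp-17, hsp-43 and dnj-5. Of 58 tested genes, 40 stayed on the same side of the threshold throughout. With 1 library left out, between 1 and 4 genes of the set were higher and between 6 and 14 lower, the extremes being without control library 2 and without caffeine library 1. Over all genes the same fits gave between 1209 and 2264 higher and between 698 and 2512 lower. Median-of-ratios scaling gave 4 higher and 10 lower in the set, library totals only 6 and 9, no count filter 4 and 10, a mean of at least 50 counts 5 and 10, DESeq2 4 and 11, and summed hsp-16 copies, chosen after seeing the data, 4 and 11. Replicate numbers are not said to mark a shared batch, and deviations of same-numbered libraries correlated at -0.18, -0.16 and 0.25, so the numbers were not taken as pairs, and not every library correlated best with its own number. A replicate block gave 3 higher and 8 lower in the set, and 1496 and 1074 over all genes. It ended the calls of hsp-3, hsp-12.2 and hsp-16.11, at adjusted p of 0.0647, 0.0736 and 0.0591 (edgeR). The cause of these shifts was not tested.

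Depth limited hsp-12.1 and hsp-12.6, which had at most 35 counts in any library. The edgeR p-values weigh the difference between the groups against the spread among 3 samples per group, moderated across all tested genes.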

Other observations

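F08H9.3 and F08H9.4, which RefSeq calls hsp-16.20 and hsp-16.21, carry no hsp symbol in the WormBase table and were left out of the set. Counts of F08H9.3 were 5, 5 and 6 without caffeine and 12, 7 and 5 with it. Those of F08H9.4 were 2, 2 and 4 without caffeine and 6, 10 and 5 with it. Neither gene passed the filter on low counts.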
